A study of Arabidopsis thaliana with 6 samples.

Results

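The genes described here were those with clearly higher transcript levels in Arabidopsis thaliana seedlings after NJ15 that were left once the chaperone, detoxification and stress genes named in the rule had been set aside. They were chosen from the measured values. A probe set, the group of probes that reports 1 transcript on the array, was taken where the lowest NJ15 array lay above the highest mock array, the mean difference reached 1 on the log2 scale, and mock replicate 1 lay less than 0.5 above the other mock arrays. Of the 22746 probe sets without controls, 82 met these limits (0.361%). From these, 21 were left out by name, mostly chaperones and their regulators, and the remaining 61 are the members. The limits used every array of the NJ15 and mock comparison, so the differences below are a description and carry no test.

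All seedlings were of the wild type Col-0, without a transgene, grown upright on MS plates for 4 days. They were sprayed with mock solution or with 10 µM NJ15, a tetrazole with a dichlorophenyl ring and an acetic acid ethyl ester side chain, then turned by 90 degrees as in a gravitropism assay, and harvested whole after 8 h. Each group had 3 biological replicates, each on 1 Affymetrix array, so precision is limited by the number of arrays. The values are read as log2 expression levels from their range; the authors' log base is not given in the sources used here.

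Transcript levels of whole seedlings average over root, hypocotyl and cotyledon cells, so a higher value cannot tell apart more cells of a type and more RNA per cell. Of the 16 green tissue markers, 4 had a named probe set. Their mean log2 level was 10.75, 11.44 and 12.06 in mock replicates 1, 2 and 3 and 11.00, 11.62 and 11.59 in the NJ15 replicates, so it differed more within the mock group than between the groups, and its part in the results was not tested. The 2 measured root hair markers of 6 were flat, and no marker of the endodermis or of vascular tissue had a named probe set. Array medians lay between 7.24 and 7.27. In 16602 of the 22746 probe sets (73.0%) all 6 values lay within 0.01 of each other, and for these, called flat here, nothing can be said about a change.

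Protein quality control in plant cells joins chaperones, which refold damaged proteins, with ubiquitin ligases, which tag them for breakdown by the proteasome. Nuclear transport moves proteins and RNA through pores lined by nucleoporins, with importins and exportins as carriers and the small GTPase Ran as the switch that sets the direction. Stress that unfolds proteins is known to engage both, as well as the machinery that starts and lengthens protein chains on the ribosome. Roles were looked up only for the 19 members with 1 gene. Of these, 5 were placed in protein quality control, 4 in nuclear transport and 2 in translation. The share of such genes among all named genes was not counted, and a link to stress that unfolds proteins was not tested. The grouping by role below rests on textbook roles and was made with the values in view. Levels are listed in the order of replicates 1, 2 and 3.

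Of the 61 members, 19 were paired with 1 gene in the platform annotation, 3 with several genes and 39 were not listed there. The share with 1 gene was 31.1%, against 59.4% of all probe sets and 50.0% of the 6144 varying ones. The member differences ran from 1.01 to 3.98 with a median of 1.30, while the median over all probe sets was -3.33e-10 and over the varying ones -0.0062. Of the members, 2 differed by 2 or more and 13 by 1.5 or more, and the other 48 lay between 1 and 1.5. The 21 probe sets left out by name had a median difference of 2.46 and ran from 1.24 to 4.28. Differences of 1 or more with the groups apart were counted in 112 probe sets in the higher direction (0.492%) and in 6 in the lower direction (0.0264%), before the limit on mock replicate 1 and the named exclusions. In 400 of the 6144 varying probe sets (6.51%) the NJ15 arrays all lay higher by any amount, and 112 of the 6144 (1.82%) also had a mean difference of 1 or more. As a background, limma called 44 of all 22746 probe sets at an adjusted p under 0.05 (0.193%), 40 of them flat; the members were not tested.

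**Figure D1:**
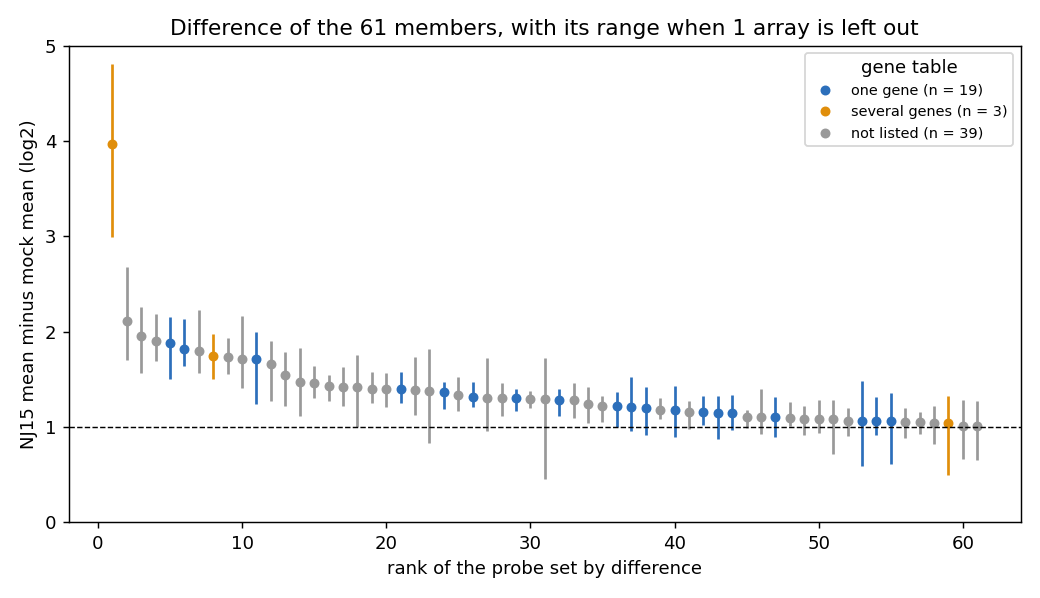
NJ15 mean minus mock mean (log2, y axis) of the 61 members in order of size (x axis, rank); points are the differences over all arrays, vertical lines span the values obtained when 1 array is left out, and colours mark how the gene table lists the probe set. The dashed line is the limit of 1; the largest difference is 3.98, and the lowest value without an array is 0.46.

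Near the limits, the members were continuous with the probe sets outside. Just inside the limit of 1, the differences of 264146_at, 262518_at and 258739_s_at were 1.009, 1.009 and 1.05. Just outside were 267319_at, 267238_at and 260350_at at differences of 0.995, 0.991 and 0.979. For the limit on mock replicate 1, the probe sets just inside were 264042_at, AT3G19240 and AT2G36220, where that array stood 0.49, 0.44 and 0.43 above the next mock array. Just outside were 251017_at, 258452_at and 263231_at, with 0.53, 0.55 and 0.58, and differences of 1.19, 1.37 and 3.05.

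Of the named members, 5 were placed under protein quality control, AT3G07090 and AT3G19240 only by relatives in other organisms. AT1G14200, a RING-type zinc finger protein of the kind found in ubiquitin ligases, had the largest difference of all named members. Its log2 level was 8.48, 8.11 and 7.19 in mock replicates 1, 2 and 3 and 9.82, 10.31 and 9.29 in NJ15 replicates 1, 2 and 3. The mock arrays spread more than the NJ15 arrays with mock replicate 3 the lowest. The mean difference was 1.88, or 3.67-fold, from 7.93 ± 0.66 (SD, n = 3) to 9.80 ± 0.51 (SD, n = 3), and it was 1.51 without mock replicate 3.

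AT1G26800, a RING ubiquitin ligase that acts on misfolded proteins, showed the same low mock replicate 3. Its log2 level was 8.68, 8.54 and 7.78 in mock and 9.74, 9.19 and 9.52 in NJ15 arrays. The groups stayed apart by 0.51 at their nearest arrays. The mean went from 8.33 ± 0.49 (SD, n = 3) to 9.48 ± 0.28 (SD, n = 3), a difference of 1.15 that was 0.87 without mock replicate 3.

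AT1G30070 encodes a protein with an SGS domain, a part shared with the chaperone adaptor SGT1. Its log2 level was 7.07, 7.53 and 7.39 in mock and 8.68, 8.64 and 8.58 in NJ15 arrays. The 3 NJ15 values were nearly equal, with an SD of 0.048, and the nearest arrays of the groups were 1.05 apart. Its difference of 1.30 stayed between 1.17 and 1.40 when any 1 array was left out.

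AT3G07090 belongs to the PPPDE family of putative thiol peptidases, which remove ubiquitin-like tags in mammals. It stood at 8.69, 8.90 and 8.42 in mock and at 10.14, 9.70 and 10.36 in NJ15 arrays, a difference of 1.40. NJ15 replicate 3 was the highest array here, whereas it was the lowest for AT1G14200 and AT1G30070. AT3G19240, named in the annotation of its family after the yeast Vid27 protein of vacuolar import and degradation, stood at 8.46, 8.02 and 7.97 in mock and at 9.49, 9.86 and 8.73 in NJ15 seedlings. Its NJ15 replicate 3 lay only 0.27 above mock replicate 1, and the difference of 1.21 was 0.96 without NJ15 replicate 2.

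Named members linked to nuclear transport numbered 4. AT1G66080 is the Arabidopsis relative of Hikeshi, which carries HSP70 into the nucleus of heat-stressed human cells. Its log2 level was tightly grouped in mock seedlings, at 6.45, 6.55 and 6.51, and stood at 7.67, 8.12 and 7.57 in the NJ15 arrays. The nearest arrays of the 2 groups were 1.02 apart. The mean went from 6.50 ± 0.052 (SD, n = 3) to 7.79 ± 0.29 (SD, n = 3), a difference of 1.29, and NJ15 replicate 2 was the highest array.

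XPO1B encodes exportin 1B, a carrier that takes proteins with a nuclear export signal out of the nucleus. It stood at 7.22, 7.59 and 7.55 in mock and at 8.95, 8.63 and 8.22 in NJ15 arrays. The groups were 0.63 apart at the nearest arrays, and the difference of 1.15 was 0.97 without NJ15 replicate 1.

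AT1G59660 encodes a nucleoporin of the NUP98 kind, and its level varied more among NJ15 arrays than that of any other named member. It stood at 6.53, 6.39 and 6.72 in mock and at 8.56, 7.51 and 6.76 in NJ15 arrays. NJ15 replicate 3 was only 0.040 above the highest mock array. The difference of 1.06 therefore rested largely on NJ15 replicate 1 and was 0.59 without it.

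AT1G69680 encodes a relative of the yeast Mog1 protein, which binds Ran. Like AT1G59660 it was much higher in NJ15 replicate 1 than in the other NJ15 arrays, with log2 levels of 9.56, 8.34 and 8.05 after 7.45, 7.66 and 7.66 in the mock arrays. The difference of 1.06 was 0.61 without NJ15 replicate 1. In both genes the groups did not overlap, as the rule demands of every member, and the size depended on that array.

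Translation was represented by 2 named members. AT5G12110 encodes a beta subunit of elongation factor 1B, which recharges the factor that brings aminoacyl-tRNA to the ribosome. Its log2 level was 7.51, 7.97 and 8.05 in mock and 9.91, 9.05 and 10.03 in NJ15 arrays. NJ15 replicate 2 was the lowest treated array, the reverse of the order in AT1G14200. The mean went from 7.84 ± 0.29 (SD, n = 3) to 9.67 ± 0.53 (SD, n = 3), a difference of 1.82, or 3.54-fold, that stayed between 1.64 and 2.13 in the leave-outs.

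AT5G54940 belongs to the SUI1 family of translation initiation factors, whose yeast namesake helps the ribosome choose the start codon. It stood at 11.36, 11.21 and 10.62 in mock and at 12.62, 12.20 and 12.03 in NJ15 arrays. Mock replicate 3 was again the lowest, and the difference of 1.22 lay just under 1 without it.

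Organelle proteins also counted 2. AT5G25450 encodes a small subunit of mitochondrial complex III, which passes electrons from ubiquinol to cytochrome c. It stood at 7.33, 7.40 and 6.84 in mock and at 8.40, 8.49 and 8.78 in NJ15 seedlings, a difference of 1.37 with the nearest arrays 1.00 apart. SUFE2 encodes a SufE-type protein, a partner of the cysteine desulfurase that supplies sulfur for iron-sulfur clusters in the plastid. Its log2 level was 8.62, 8.89 and 8.40 in mock and 9.92, 9.99 and 9.19 in NJ15 seedlings, with NJ15 replicate 3 the lowest of the treated arrays and a difference of 1.06.

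A stress protein and a secreted protein followed. AT5G61820, similar to the stress up-regulated Nod 19 protein, stood at 10.47, 10.15 and 10.18 in mock and at 11.70, 11.48 and 11.09 in NJ15 arrays, a difference of 1.16. AT2G37870, of the lipid transfer protein family of small secreted proteins, stood at 7.89, 8.07 and 7.69 in mock and at 9.41, 8.98 and 8.57 in NJ15 seedlings, a difference of 1.10. Both had NJ15 replicate 1 as the highest and replicate 3 as the lowest treated array.

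The last 4 named members are given without a role. AT1G72800 had a difference of 1.71, with 6.97, 7.35 and 6.92 in mock and 9.72, 8.44 and 8.21 in NJ15 arrays. NJ15 replicate 1 stood 1.27 above the next treated array, and the difference without it was 1.24. AT5G35320 stood at 7.38, 7.20 and 7.40 in mock and at 8.76, 8.85 and 8.30 in NJ15 seedlings, a difference of 1.31 with little spread in mock. AT5G11070 had values of 8.29, 7.60 and 8.62 in mock and 9.005, 9.81 and 9.27 in NJ15 seedlings, and AT2G36220 had 8.57, 8.14 and 7.49 in mock and 9.37, 9.62 and 8.74 in NJ15 seedlings. In these last genes the mock arrays spread over a wider range than the NJ15 arrays, and the differences of 1.20 and 1.18 were 0.91 without mock replicate 2 and 0.89 without mock replicate 3.

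**Figure D2:**
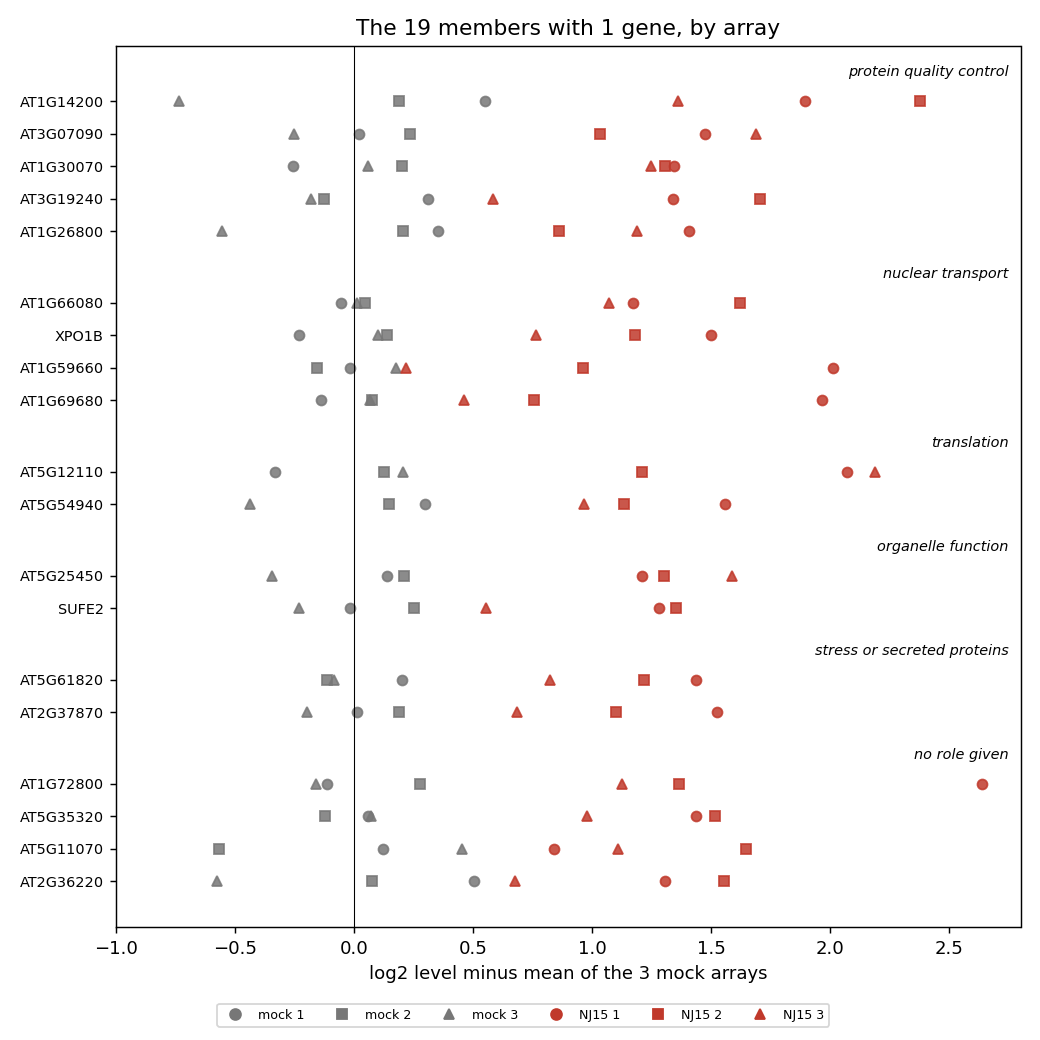
Log2 level minus the mean of the 3 mock arrays (x axis) for the 19 members with 1 gene (y axis, grouped by role); grey symbols are mock and red symbols NJ15 arrays, with 1 symbol shape per replicate number. All red symbols lie right of all grey ones, as the rule demands, with the nearest pair in AT1G59660 at 0.040 apart and the farthest in AT1G30070 at 1.05.

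Close relatives of these genes were looked up after the values were seen. Of 9 such genes, 5 had a named probe set. The NUP98 relative AT1G10390, the elongation factor subunit AT5G19510, the SUI1 gene AT1G54290 and the complex III gene AT4G32470 were flat, so nothing can be said about a change in them. The SUI1 gene AT4G27130 varied and stood at 11.09, 11.00 and 10.70 in mock and at 10.85, 10.85 and 10.83 in NJ15 seedlings. Its groups overlapped, with a difference of -0.08 beside 1.22 for AT5G54940 of the same family.

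The 3 members paired with several genes are left without a gene name. One of them, 262911_s_at, had the largest difference of all members, 3.98. It stood at 5.70, 5.76 and 5.74 in mock and at 9.42, 11.67 and 8.03 in NJ15 arrays. The mock values were nearly equal, while the NJ15 values spanned 3.64, the widest range of any member. The difference was 2.99 without NJ15 replicate 2. Of the other two, 253268_s_at had a difference of 1.74 and its lowest treated value in NJ15 replicate 3, and 258739_s_at had 1.05 and 0.49 without mock replicate 3, with only 0.0056 between its nearest mock and NJ15 arrays.

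The 39 members that the gene table does not list had differences from 1.01 to 2.11 with a median of 1.30, and 8 of them reached 1.5. The largest was that of 265200_s_at, which stood at 6.63, 5.76 and 6.83 in mock and at 9.34, 8.83 and 7.38 in NJ15 arrays. Second came 263184_at, with 7.36, 6.68 and 7.47 in mock and 9.88, 8.98 and 8.50 in NJ15 seedlings. Both were low in mock replicate 2 and, among treated arrays, highest in NJ15 replicate 1 and lowest in replicate 3. The next, 261564_at, stood at 8.54, 8.32 and 8.77 in mock and at 10.59, 10.87 and 9.89 in NJ15 seedlings. A different order was seen in 261081_at, at 8.30, 8.69 and 8.04 in mock and at 10.53, 9.28 and 10.62 in NJ15 seedlings, where NJ15 replicate 2 was the lowest, as in AT5G12110. Finally, 258336_at stood at 7.94, 8.40 and 7.64 in mock and at 9.69, 9.96 and 9.53 in NJ15 seedlings, with little spread among the treated arrays.

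The order of arrays within the NJ15 group was not set by the rule. NJ15 replicate 1 was the highest treated array in 35 of 61 members (57.4%), replicate 2 in 19 and replicate 3 in 7. Over all varying probe sets replicate 1 was the highest in 37.8%. NJ15 replicate 3 was the lowest in 43 members (70.5%), against 33.5% of the varying probe sets and 66.7% of the 21 left out by name. The median member stood 1.47, 1.31 and 1.06 above its mock mean in NJ15 replicates 1, 2 and 3, and 57, 49 and 33 members stood at least 1 above it. In 23 members, 7 of them named, all 3 NJ15 arrays did so. These shares are given without a test.

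**Figure D3:**
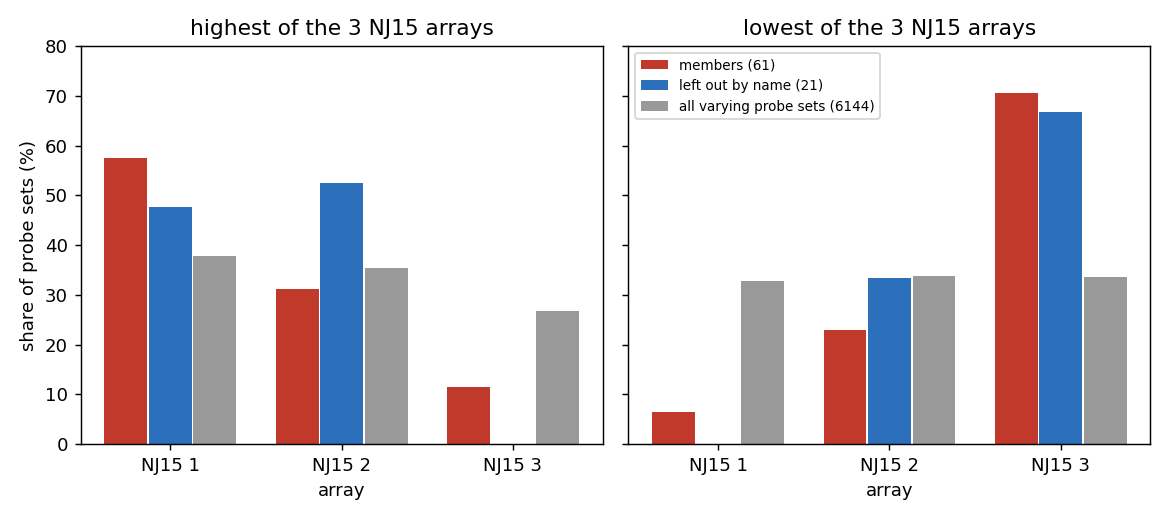
Share of probe sets (%, y axis) in which each NJ15 array (x axis) was the highest (left) or the lowest (right) of the 3; red bars are the 61 members, blue bars the 21 probe sets left out by name and grey bars the 6144 varying probe sets. NJ15 replicate 3 was the lowest in 70.5% of the members and in 33.5% of the varying probe sets.

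Single arrays led in a few members. NJ15 replicate 2 stood more than 0.9 above both other NJ15 arrays in 4 members, all without a single gene name: 262911_s_at, 266590_at, 252515_at and 252368_at. NJ15 replicate 1 did so in 4 others, AT1G72800, AT1G69680, AT1G59660 and 263184_at, and NJ15 replicate 3 in 0. For 266590_at the levels were 6.17, 6.41 and 6.37 in mock and 7.48, 8.79 and 6.80 in NJ15 seedlings. By this definition, the members of the first set had their highest treated value in a different seedling sample from those of the second.

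Within the mock group, replicate 3 was the lowest array in 29 of 61 members (47.5%), against 43.5% of the varying probe sets, and the median range over the mock arrays was 0.49. The median range over the NJ15 arrays was 0.72. The NJ15 range was the larger in 39 members (63.9%), against 27.8% of the varying probe sets. The limit on mock replicate 1 acts on the mock arrays only, so the rule may partly set this contrast, which was not tested. Mock replicate 3 decided 264470_at, which stood at 8.91, 8.96 and 6.42 in mock and at 9.28, 9.06 and 9.83 in NJ15 seedlings. Its difference of 1.30 was 0.46 without that array.

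In all, 35 members kept a difference of 1 or more whichever array was left out, among them 9 with 1 gene and 24 of the unlisted ones. The number was 58, 56 and 47 without mock replicates 1, 2 and 3 and 46, 53 and 60 without NJ15 replicates 1, 2 and 3. The difference moved by more than 1.5 times in 8 members. These were AT1G59660, AT1G69680, 264470_at and 258739_s_at, given above, with 266590_at and 252515_at at 0.83 and 0.72 without NJ15 replicate 2, 262518_at at 0.66 without NJ15 replicate 1 and 264146_at at 0.65 without mock replicate 3.

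**Figure D4:**
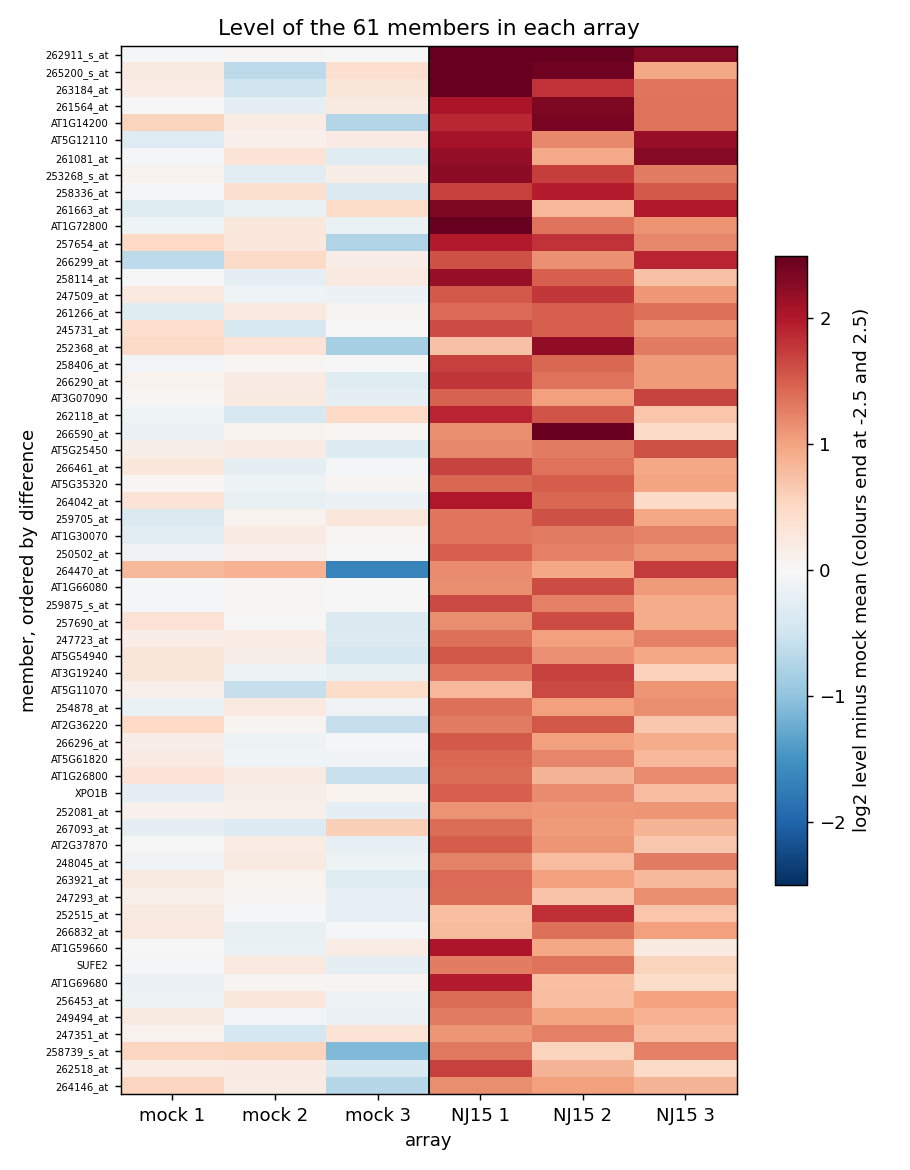
Log2 level minus the mock mean (colour, ending at -2.5 and 2.5) of each of the 61 members (rows, largest difference on top, gene or probe set named) in each of the 6 arrays (columns). NJ15 replicate 3 is paler than replicate 1 in most rows, and the dark blue cell is mock replicate 3 of 264470_at at 6.42.

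Other genes of related pathways were looked up by locus. Among genes of protein folding in the endoplasmic reticulum, the branch of quality control that serves secreted proteins, 4 of 15 had a named probe set and 3 varied. The co-chaperone ATERDJ3B stood at 9.65, 9.54 and 9.43 in mock and at 9.82, 9.34 and 9.69 in NJ15 seedlings, a difference of 0.08. BZIP60, the transcription factor of this response, and CRT1b, a lectin chaperone, differed by 0.06 and -0.03. Their groups overlapped, and none of the 4 passed limma over all probe sets (0 with an unadjusted p under 0.05). Over all probe sets, 44 of 22746 passed (0.193%), 40 of them flat, and 1253 had an unadjusted p under 0.05. With so few varying probe sets called, not passing says little about a gene of this or the following lists.

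Autophagy delivers damaged proteins to the vacuole, and 5 of 7 listed genes were measured, of which 4 varied. ATG8E, which encodes a tag protein of the autophagosome membrane, stood at 9.23, 8.92 and 8.71 in mock and at 8.64, 8.64 and 8.99 in NJ15 seedlings. Its difference was -0.20, and those of APG8A and ATG8B were -0.08 and -0.05. None of the 5 had a mean difference of 1 or more with the groups apart, where 0.354% of the 13286 named genes did in the higher direction, and 0 passed limma (0 with an unadjusted p under 0.05).

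The list of genes known to respond to mitochondrial stress held 18 genes, of which 7 were measured and 5 varied with a median difference of 1.57. Of the 7 measured, 2 had a mean difference of 1 or more in the higher direction with groups that did not overlap. So did 0.354% of all named genes and 1.82% of the varying probe sets, and the list was chosen with earlier results known. The 2 were AT5G51440, a small heat shock protein of mitochondria, at 3.61, and GSTU25, a glutathione transferase, at 1.57. Only 0.0039 lay between the nearest mock and NJ15 arrays of GSTU25. The rule leaves out both by name, and GSTU25 also exceeded the limit on mock replicate 1, at 0.70 above the next mock array. AT2G21640, a marker of oxidative stress, had 1.73 with overlapping groups, and AT5G09570 and AT2G04050 had 0.40 and 0.26, also with overlapping groups. None passed limma over all probe sets (1 with an unadjusted p under 0.05). The complex III gene AT5G25450 is not on this list. Of 17 genes of the low oxygen response 5 were measured and 2 varied, AT4G10270 at -0.22 and AT4G27450 at 0.03, and of 25 genes of abscisic acid and drought 2 were measured and 1 varied, COR47 at 0.24. None of either list passed limma (0 with an unadjusted p under 0.05 in each).

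In the gene order of the TAIR10.1 annotation the named members were scattered. The nearest other named gene that was higher by 1 or more with the groups apart lay 38 genes away or farther for each of the 19. Members paired with several genes or not listed had no position, so closeness to them could not be checked.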

How the data were processed

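Total RNA of 6 seedling samples was hybridised to Affymetrix arrays after labelling with a 3 prime in vitro transcription kit, per the labels' protocols. R 2.7.2 is named in the submitters' processing notes; how background was corrected and arrays were normalized is not given in the sources used here. A deposited table holds 1 log2 value per probe set and array, the scale being read from the range. How the authors made most probe sets flat is not stated, and it may also affect the size of a difference in the varying ones. The signal over background of a probe set is not known.

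The deposited values were taken unchanged, without the 64 control probe sets. The rule was applied with pandas 2.3.3 in Python 3.11.15; figures used matplotlib 3.10.9. As background, limma 3.58.1 in R 4.3.3 compared the groups over all 22746 probe sets, Benjamini-Hochberg adjusted at 0.05. A run on simulated data covered varying probe sets only and checked the estimated differences, not the calls over all probe sets. The members got no p-value, because the rule used the same contrast. Named genes were all members with 1 gene, with every array value, the 5 largest unlisted members and those next to the limits. Up to 3 genes outside the set were named per list, except that all 5 varying genes of mitochondrial stress were. The probe set 262911_s_at, the members that rest on 1 array and the close relatives were picked with their values in view.

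Genes came from the platform annotation (13513 probe sets with 1 gene, 503 with several, 8730 not listed), updated through RefSeq's TAIR10.1 gene table. For list counts, a gene with several probe sets was taken by the one with the highest mean. Gene families looked up by words in symbols and synonyms are not reported, since that search also catches unrelated genes and misses genes known only by a locus code. The members and lists were chosen with earlier results of these data known. Sequences were not used here, so the planned search for promoter motifs was not run.

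Same-numbered mock and NJ15 arrays had correlations of their deviations from the group means of 0.586, -0.305 and 0.192 over varying probe sets, so the numbers were not taken as pairs. Alternatives were other scalings, other limits, each array left out, the replicate number as a block, and filters.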

Additional observations from a re-analysis of the deposited data

Results flagged for a closer look

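Control probe sets were left out of every comparison above, but 4 of the 64 had the groups apart by a mean difference of over 0.1, none by 1 or more. The GAPDH control probe sets toward the 5 prime end, in the middle and at the 3 prime end (AFFX-Athal-GAPDH_5_s_at, AFFX-Athal-GAPDH_M_s_at and AFFX-r2-At-GAPDH-3_s_at) were higher in NJ15 seedlings by 0.490, 0.246 and 0.608. The control probe set for 25S rRNA (AFFX-Athal-25SrRNA_s_at) had a difference of -0.437, with 11.50, 11.47 and 11.49 in mock and 10.88, 11.24 and 11.04 in NJ15 seedlings. These differences were not tested.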

How the results depend on the processing

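The member count of 61 was 57 after quantile normalization and 58 after centring on the common median, all of them among the 61; these scalings moved the median difference of all probe sets by -0.014 and -0.018. It was 87 and 13 with a difference of at least 0.8 and 1.5, 90 with no limit on mock replicate 1, 48 with a limit of 0.25, 61 without low means, and 19 with 1 probe set per named gene. Without single arrays the rule gave 49 to 166 probe sets, the 166 without mock replicate 1, where its limit falls away; 58 of the 61 were then still members. The median member difference of 1.30 lay between 1.20 and 1.39 in the leave-outs, and 105 to 189 probe sets, in place of 112, were higher by 1 or more with the groups apart: 189 without mock replicate 1 and 175 without NJ15 replicate 3. Pairing same-numbered arrays in the rule (replicate block) gave 65, holding all 61.

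Over all probe sets limma called 44 (0.193%), 40 of them flat, with 1253 at an unadjusted p under 0.05. With the replicate number as a block it called 0 (1208 at an unadjusted p under 0.05), after quantile normalization 0 (3347), with a trend and robust prior 0 (886), without low means 1, over varying probe sets 4, after centring 17165, of which 16591 were flat, and without single arrays 4 to 15. The sign of a leave-out difference of a member is fixed by the rule; the size for AT1G59660 and AT1G69680 went from 1.06 to 0.59 and 0.61 without NJ15 replicate 1. Signal over background is unknown, so what it limits was not analysed here.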
